A study of Mus musculus with 6 samples.

Results

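Leukocytes of the kidney were followed through 39 genes that mark them in whole-tissue RNA: 29 of macrophages and of leukocytes in general, 7 of lymphocytes and 3 of neutrophils. The genes were taken by symbol from a count table of 46095 rows, and all 39 were found. The table holds 3 kidneys from mice given DHT (dihydrotestosterone, an androgen that cannot be converted to oestrogen) and 3 control kidneys, all on a C57BL/6 background. DHT-treated mice are used as a model of polycystic ovary syndrome (PCOS), and the study asked about inflammation and apoptosis in the kidney of that model. Control mice bear the same strain label as treated ones, so that the treatment label alone sets the groups. No dose, duration or age is given, nor whether replicates come from different mice, and p-values speak for the spread of these samples only.

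Resident macrophages lie between the tubules and along the vessels of the kidney, where they clear debris and antibody complexes and depend on the growth factor receptor encoded by Csf1r. Monocytes that carry Ccr2 enter from the blood and can mature into macrophages, and lymphocytes and neutrophils are sparse in the uninjured organ. In whole tissue, a change in the number of such cells and a change in the RNA made per cell cannot be told apart.

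Leukocyte RNA differed more among the 3 DHT kidneys than between DHT and control. The 39 genes together took 0.0362%, 0.134% and 0.0649% of all counts in DHT replicates 1, 2 and 3. In control replicates 1, 2 and 3 they took 0.0402%, 0.0477% and 0.0718%. DHT replicate 2 thus held the largest share of leukocyte RNA and DHT replicate 1 the smallest, with the 3 controls and DHT replicate 3 between them. Libraries held 15.05 to 19.33 counts in units of 1e6, and DHT replicate 2 was the shallowest. Below, levels are counts per 1e6 scaled by TMM (CPM), and fold changes are DHT minus control on the log2 scale with a standard error.

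The kidneys carried the markers of their tissue, among them Umod of the loop of Henle at 3097 to 4002 CPM in DHT kidneys and 2759 to 7598 CPM in control. The proximal tubule transporter gene Slc34a1 stood at 3927 to 5580 CPM in DHT kidneys and 3800 to 5899 CPM in control. The leukocyte label held for macrophages by their genes Adgre1, Csf1r, Cd68 and the C1q genes, which had at least 34 counts in each library. Of other macrophage markers, Aif1 was listed at 0 in all libraries, and Timd4 and Vsig4 had at most 4 counts in any. The label held only in part for other members: Cd163, a haemoglobin scavenger receptor of some macrophages, had 0, 3 and 2 counts in DHT and 8, 3 and 3 in control. Ms4a1, the B cell gene for CD20, had 10 counts in DHT and 9 in control. Laptm5, a lysosomal membrane protein gene of most leukocytes, had 11 counts in DHT and 7 in control although the other pan-leukocyte genes had at least 23 in each library.

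Promoters of these genes are shown because many leukocyte genes are bound by PU.1, the transcription factor encoded by Spi1. PU.1 recognises purine-rich sequence with the core GAGGAA. A RefSeq promoter (build GRCm38.p6, 250 bases before the start) was held for 29 of the 39 genes, with 34 starts in all. GAGGAA was sought on both strands, its reverse complement being TTCCTC, and was present before 17 of the 34 starts (50%), in 16 genes. Over all 32851 promoters of that length the share was 23.3%. The composite element of PU.1 with an IRF partner was present at 1 of 34 starts (2.94%) against 2.3% of all, and the TATA box TATAAA at 4 (11.8%) against 12.4%. An extended PU-box, 2 letters longer, was present at 2 (5.88%) against 2.44%. The same Fcgr3 match was counted before both starts of that gene. These are matches of letters and not measured sites, and a part of PU.1 in the values of these libraries was not tested. The stretches below lie upstream of the start, in the direction of the gene, with the match in capitals.
C1qb, chr4:136886201-136886260, minus strand: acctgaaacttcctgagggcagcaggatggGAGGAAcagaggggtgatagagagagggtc
C1qc, chr4:136893072-136893137, minus strand: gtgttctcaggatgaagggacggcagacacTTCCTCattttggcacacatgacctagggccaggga
Ctss, chr3:95526592-95526657, plus strand: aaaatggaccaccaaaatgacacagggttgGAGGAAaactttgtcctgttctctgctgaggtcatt
Trem2, chr17:48346331-48346396, plus strand: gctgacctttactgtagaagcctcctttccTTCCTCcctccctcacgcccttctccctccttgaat
Itgam, chr7:128062595-128062639, plus strand: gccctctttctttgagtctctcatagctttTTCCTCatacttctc
Cd53, chr3:106790153-106790218, minus strand: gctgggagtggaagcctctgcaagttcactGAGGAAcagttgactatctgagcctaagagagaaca
The match began 30 bases upstream of the RefSeq start in C1qb, 15 in Itgam, 39 in Cd53 and 40 in Trem2, and farther away in Ctss (164) and C1qc (193). Spi1 itself was at 2.83, 10.8 and 4.15 CPM in DHT replicates 1, 2 and 3 and at 3.20, 2.28 and 4.40 CPM in control replicates 1, 2 and 3. Its log2 fold change was 0.84 ± 0.50, which did not pass (edgeR adjusted p = 0.344).

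No leukocyte gene was called between DHT and control. Of the 39, 35 passed the filter on low counts, and 0 of these passed an adjusted p of 0.05 in edgeR's quasi-likelihood test over 15367 genes. Over all tested genes 2.84% were called, 1.38% higher and 1.46% lower. At an unadjusted p under 0.05, 4 of the 35 were higher (C1qb, C1qc, Tyrobp and S100a9) and 0 lower, where 23.9% of all tested genes reached that level. Adjusted p ran from 0.146 for C1qc to 0.863 for Cd4. DESeq2 called 2, C1qc (adjusted p = 0.0325) and Tyrobp (adjusted p = 0.0459), in a test that called 10.8% of all genes, and limma-voom, which called 2.09% of all genes, called 0, with 2 at an unadjusted p under 0.05. Without DHT replicate 1, 19 of 36 members were higher at an unadjusted p under 0.05, where 1417 of all 15836 genes tested in that fit were, and 0 were called, with 0.12% of all genes called. Without DHT replicate 3 or control replicate 1, 2 or 3, 0 members were called, with 0%, 2.32%, 0.0446% and 0.571% of all genes called. The fitted change was above 0 in 32 of the 35, with a median of 0.74 log2 beside 0.00 over all genes tested. Without DHT replicate 2 that median was 0.07.

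DHT replicate 2 was the highest of the 6 libraries for 31 of the 35 tested members, where it was the highest for 15.2% of all tested genes. It exceeded the mean of the other 2 DHT libraries at least 2-fold for 26 of 35, against 5.99% of all. The median member stood 2.57-fold above the other DHT libraries and 2.67-fold above the control mean there, and the median of all genes stood at 0.988 and 0.992. In DHT replicate 3, 17 of 35 lay above all 3 controls, where 34.3% of all genes did. In DHT replicate 1 the count was 1, S100a9, against 33% of all genes. There 14 of 35 lay below all 3 controls, as did 5090 of all 15367 tested genes, a share near that of the members. The standard deviation of log2 CPM was larger among DHT than among control libraries for 30 of 35 members (median 0.90 in DHT and 0.38 in control). Over all tested genes it was larger among DHT libraries for 55.9%, and the medians were 0.21 in DHT and 0.19 in control.

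**Figure D1:**
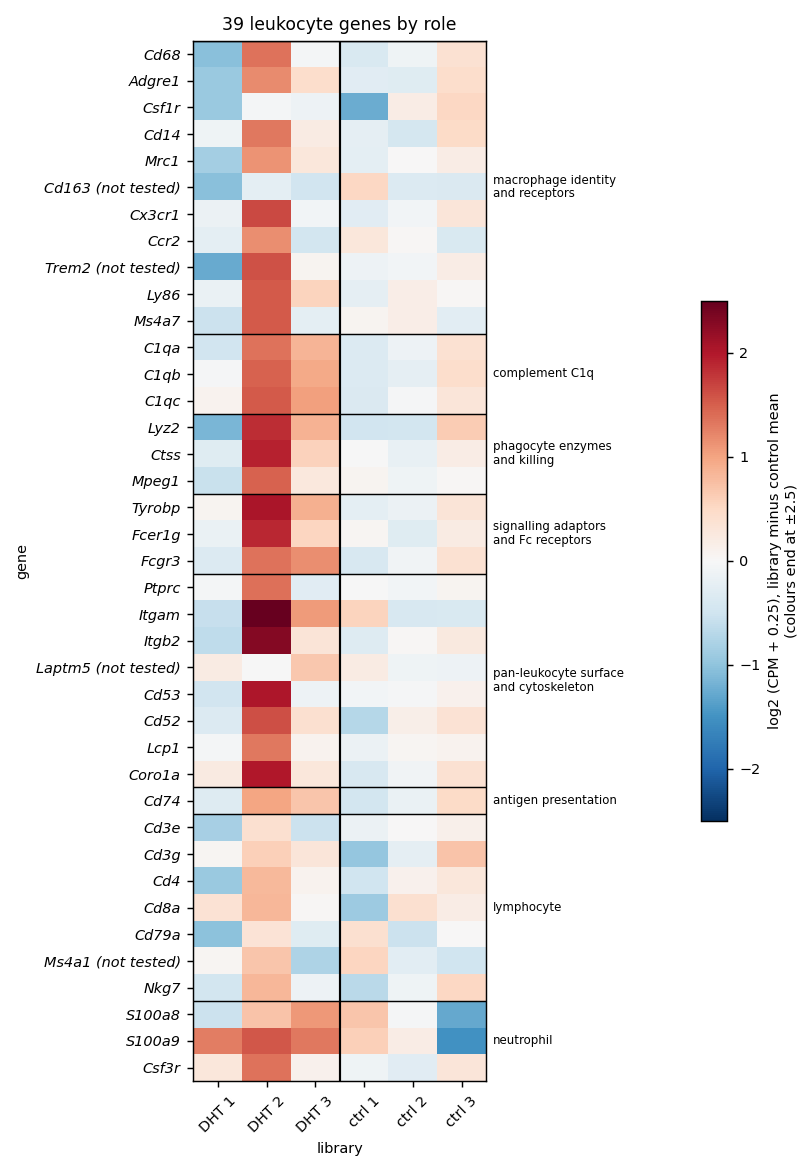
Log2 (CPM + 0.25) of each of the 39 genes in each library (columns) minus the mean of the 3 controls, with rows grouped by role; red is above and blue below the control mean. DHT replicate 2 is red in nearly every row, and DHT replicate 1 is mostly blue or pale. DHT replicate 3 is red in the C1q, adaptor and Cd74 rows and for Lyz2, Ctss, Ly86, Laptm5, Itgam, S100a8 and S100a9.

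Of the 11 macrophage identity and receptor genes, 9 were highest in DHT replicate 2, and Csf1r and the sparsely read Cd163 were not. Adgre1 (chromosome 17, 57358691 to 57483527, GRCm38) encodes F4/80, the adhesion receptor used to stain mouse macrophages, and was at 4.15, 18.6 and 11.1 CPM in DHT replicates 1, 2 and 3. The values in control replicates 1, 2 and 3 were 6.64, 6.54 and 11.1 CPM. The groups overlapped, with DHT replicate 1 below every control and DHT replicate 2 above every control. The log2 fold change was 0.47 ± 0.50 (edgeR adjusted p = 0.601).

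Cd68 (chromosome 11, 69664213 to 69666153), a glycoprotein of macrophage lysosomes, was at 2.14, 12.5 and 4.57 CPM in DHT replicates 1, 2 and 3. It was at 3.57, 4.36 and 6.18 CPM in control replicates 1, 2 and 3. As with Adgre1, both the lowest and the highest value came from DHT kidneys, and the fitted change of 0.44 ± 0.58 did not pass (edgeR adjusted p = 0.684). Without DHT replicate 2 it was -0.50 (adjusted p = 0.455).

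Csf1r (chromosome 18, 61100598 to 61132149), the receptor for the survival factors CSF1 and IL-34, was at 33.0, 60.7 and 57.3 CPM in DHT replicates 1, 2 and 3. The controls were at 26.4, 71.6 and 90.7 CPM, so DHT replicate 2 stood within their range and control replicate 3 was highest. Its log2 fold change was -0.32 ± 0.46 (edgeR adjusted p = 0.713) and 0.03 without control replicate 3. The gene Csf1r shares 15.1% of its exonic bases with Hmgxb3 on the opposite strand, and strand use in counting is not given. Hmgxb3 ran between 30.2 and 37.0 CPM in DHT and between 29.7 and 34.1 CPM in control, a narrower range than that of Csf1r.

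The ligands of this receptor did not pass either. Csf1 was at 11.8, 25.1 and 17.9 CPM in DHT replicates 1, 2 and 3 and at 15.2, 12.4 and 18.3 CPM in the controls (edgeR adjusted p = 0.61). Il34 was at 17.7, 6.64 and 12.5 CPM in DHT and at 3.81, 4.10 and 11.7 CPM in the controls (log2 fold change 0.90 ± 0.52, adjusted p = 0.332). Csf1 was thus highest where the macrophage genes were highest, and Il34 was lowest in that kidney among the DHT libraries.

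Cx3cr1 and Ccr2 encode chemokine receptors that part resident or patrolling cells from monocytes recruited during inflammation. Cx3cr1 was at 7.48, 26.6 and 7.89 CPM in DHT replicates 1, 2 and 3 and at 6.76, 7.88 and 10.3 CPM in control replicates 1, 2 and 3. Ccr2 was at 5.59, 15.3 and 4.80 CPM in DHT and at 8.12, 6.80 and 5.10 CPM in control. Both were high in DHT replicate 2 alone, by 3.46-fold and 2.94-fold over the mean of the other DHT libraries, and both changed sign in the fit without it (-0.13 and -0.37 log2). Their ligand genes were read as well: Cx3cl1 was at 70.5 to 95.2 CPM in DHT kidneys and 61.0 to 78.8 CPM in control. Ccl2, which draws Ccr2-bearing monocytes, had 2, 66 and 8 counts in DHT replicates 1, 2 and 3 and 13, 8 and 27 in the controls. Of these ligands Ccl2, and not Cx3cl1, was highest in DHT replicate 2.

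Mrc1, the mannose receptor of tissue macrophages, was at 3.14, 13.1 and 7.18 CPM in DHT replicates 1, 2 and 3 and at 4.92, 5.97 and 6.78 CPM in control. Cd14, which presents bacterial lipopolysaccharide to its receptor, was at 4.90, 13.7 and 6.17 CPM in DHT and at 4.55, 3.89 and 7.57 CPM in control. Neither passed (edgeR adjusted p = 0.621 and 0.4), and for both DHT replicate 2 alone stood well above the rest. Trem2, a lipid-sensing receptor of macrophages that signals through the adaptor encoded by Tyrobp, had 1, 32 and 9 counts in DHT replicates 1, 2 and 3, against 7, 9 and 12 in the controls. It did not pass the filter and was not tested. Ly86, which assists a Toll-like receptor relative, and Ms4a7, a membrane protein gene of macrophages, had log2 fold changes of 0.86 ± 0.44 and 0.61 ± 0.57, and did not pass (edgeR adjusted p = 0.265 and 0.55).

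**Figure D2:**
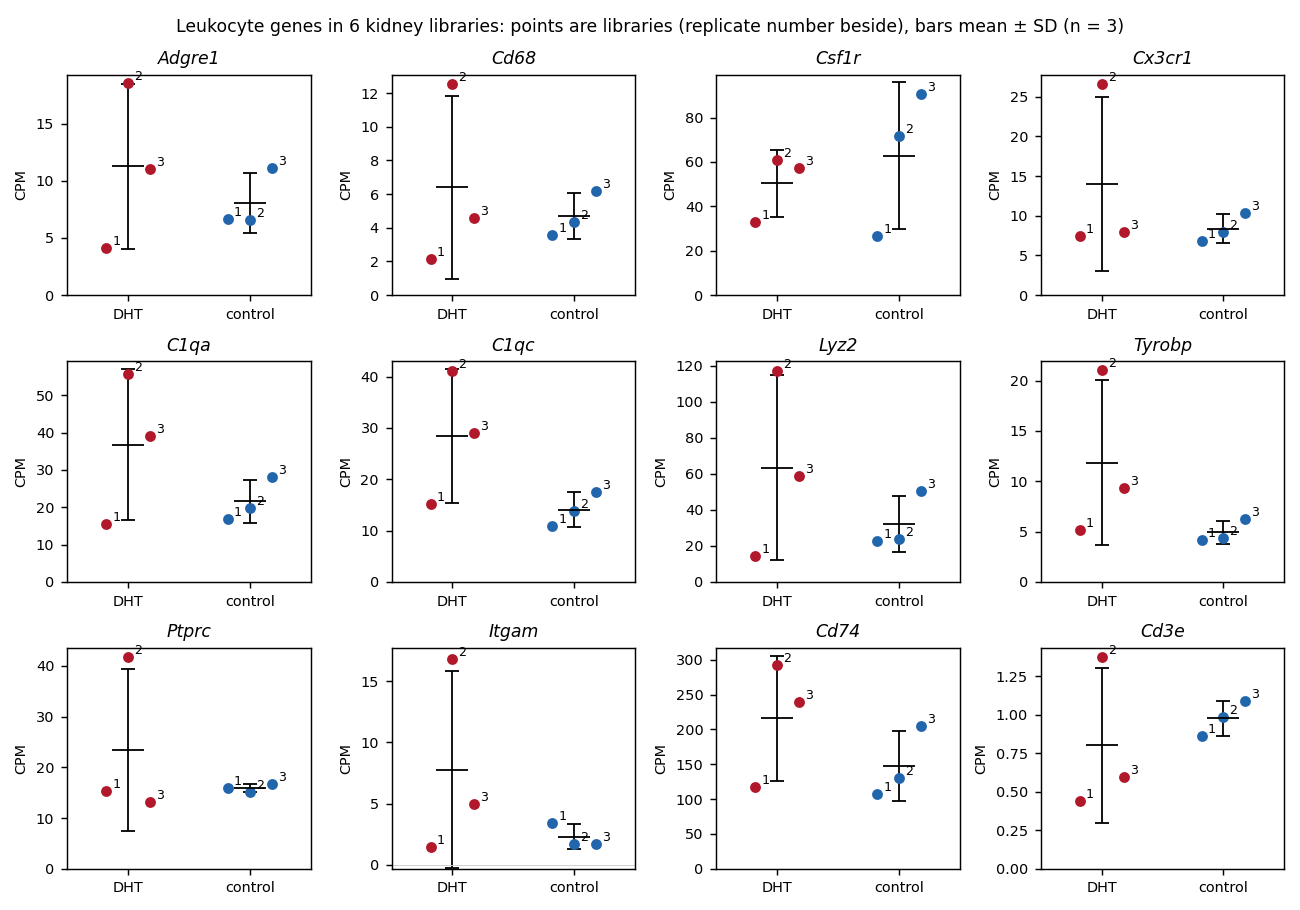
CPM of 12 leukocyte genes in DHT and control kidneys: each point is 1 library with its replicate number, and the bars give the mean ± SD (n = 3). DHT replicate 2 is the top point for all genes shown except Csf1r, and DHT replicate 1 lies below all 3 controls for 6 of the 12.

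Of the 35 tested members C1qc, a chain of complement C1q, had the smallest adjusted p. C1q binds antibody complexes and dying cells and starts the classical complement pathway; its 3 chains are made by macrophages in most tissues and their genes lie side by side on chromosome 4. C1qa (136895917 to 136898803, GRCm38) was at 15.4, 55.7 and 39.2 CPM in DHT replicates 1, 2 and 3 and at 16.9, 19.7 and 28.1 CPM in control. C1qb (136880129 to 136886187) was at 17.4, 50.2 and 34.5 CPM in DHT and at 14, 15.2 and 24.4 CPM in control. C1qc (136889804 to 136893065) was at 15.1, 41.1 and 29.1 CPM in DHT and at 10.9, 13.9 and 17.5 CPM in control.

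For each chain, DHT replicates 2 and 3 were above every control. DHT replicate 1 was below every control for C1qa and among them for C1qb and C1qc. The log2 fold changes of C1qa, C1qb and C1qc were 0.77 ± 0.45, 0.93 ± 0.39 and 1.01 ± 0.36 (edgeR adjusted p = 0.348, 0.208 and 0.146). Without DHT replicate 2 they were 0.33, 0.53 and 0.64 (adjusted p = 0.664, 0.379 and 0.232). Without DHT replicate 1 they were 1.14, 1.25 and 1.31 (adjusted p = 0.104, 0.109 and 0.0749), the last the smallest adjusted p of any member in the edgeR and limma-voom alternatives.

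The proportions of the chains were compared as ratios of counts. C1qa counts were 1.02, 1.36 and 1.35 times C1qc counts in DHT replicates 1, 2 and 3 and 1.55, 1.42 and 1.6 times in control. These groups do not overlap, and an exact two-sided permutation test gives p = 0.1, the smallest that 3 against 3 allows (0.4 when adjusted over the 4 ratios computed). C1qa counts per count of Ptprc, the gene for the common leukocyte antigen CD45, were 1, 1.33 and 2.99 in DHT and 1.06, 1.3 and 1.68 in control (exact permutation p = 0.8). DHT replicate 3 thus had the most C1qa for its Ptprc.

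The phagocyte enzymes were spread more widely among the DHT kidneys than the C1q genes. Lyz2 (chromosome 10, 117277331 to 117282321), lysozyme of macrophages and neutrophils, was at 14.4, 117 and 59.0 CPM in DHT replicates 1, 2 and 3 and at 22.9, 23.6 and 50.3 CPM in control. Lyz1 has a near-identical transcript (at least 95% identity over at least 50% of its length), which makes the Lyz2 count uncertain, and Lyz1 had 3 counts in DHT and 2 in control. DHT kidneys held both the lowest and the highest Lyz2 value, and the change of 0.97 ± 0.73 did not pass (edgeR adjusted p = 0.462).

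Ctss, the cathepsin that trims the invariant chain before antigen loading, was at 19.2, 91.6 and 35.7 CPM in DHT replicates 1, 2 and 3 and at 23.7, 20.9 and 27.0 CPM in control. Mpeg1, a pore-forming protein of macrophages, was at 20.9, 85.7 and 36.8 CPM in DHT and at 32.2, 28.7 and 31.4 CPM in control. Both were within a narrow range in the controls and spread over 4-fold in DHT. Per kilobase of exon, a scale on which genes can be compared, Lyz2, Ctss and C1qa averaged 48.3, 36 and 35.3 CPM per kb in DHT and 24.5, 17.6 and 20.7 CPM per kb in control. Only Cd74 was higher among the members, and Mrc1 averaged 1.22 in DHT and 0.924 CPM per kb in control.

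Tyrobp (chromosome 7, 30413760 to 30417585), the adaptor DAP12 that carries the signal of Trem2 and other myeloid receptors, was at 5.15, 21.0 and 9.37 CPM in DHT replicates 1, 2 and 3 and at 4.12, 4.41 and 6.23 CPM in control. DHT replicates 2 and 3 were above every control and DHT replicate 1 was among them. Its log2 fold change was 1.26 ± 0.48 (edgeR adjusted p = 0.168), and 0.55 without DHT replicate 2 (adjusted p = 0.313). Fcer1g, the shared chain that activating Fc receptors use to signal, had a log2 fold change of 1.04 ± 0.50 (edgeR adjusted p = 0.26). Fcgr3, which encodes such a receptor for IgG, had one of 0.94 ± 0.44 (adjusted p = 0.24). Neither passed, and in each DHT replicates 2 and 3 lay above all controls.

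Among genes of leukocytes in general, the excess of DHT replicate 2 was largest for Itgb2, Itgam and Cd53. Ptprc (chromosome 1, 138062861 to 138175708) was at 15.4, 41.8 and 13.1 CPM in DHT replicates 1, 2 and 3 and at 15.9, 15.2 and 16.7 CPM in control. The other 5 libraries thus lay between 13.1 and 16.7 CPM and DHT replicate 2 stood alone. Itgam (chromosome 7, 128062640 to 128118491), the CD11b integrin of myeloid cells, was at 1.45, 16.9 and 4.98 CPM in DHT and at 3.44, 1.66 and 1.68 CPM in control. Itgb2, the chain that pairs with it, was at 4.40, 34.8 and 8.78 CPM in DHT and at 5.53, 7.05 and 8.21 CPM in control. Cd53, a tetraspanin of all leukocytes, was at 3.71, 22.2 and 4.80 CPM in DHT and at 4.98, 5.14 and 5.69 CPM in control.

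Itgb2, Cd53 and Itgam had the largest excess of DHT replicate 2 over the other DHT libraries among members averaging at least 1 CPM, at 5.29-, 5.21- and 5.24-fold on the linear scale. The fitted changes of Itgam and Itgb2 were 1.79 ± 0.83 and 1.2 ± 0.74 (edgeR adjusted p = 0.243 and 0.367), and 0.51 and -0.08 without DHT replicate 2. Of the exonic bases of Itgam, 68.7% lie also in the gene model Gm49368 on the same strand, so its count is uncertain. Itgam counts per count of Adgre1 were 0.348, 0.906 and 0.449 in DHT and 0.519, 0.254 and 0.151 in control (exact permutation p = 0.3). DHT replicate 2 therefore held the most Itgam for its Adgre1. Cd52, Lcp1 and Coro1a, a small surface glycoprotein and 2 actin-binding proteins of leukocytes, were also highest in DHT replicate 2, at 22.1, 100 and 35.3 CPM. In the other 5 libraries Lcp1 ran from 38.7 to 42.7 CPM in DHT and from 36.2 to 42.7 CPM in control.

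Cd74 (chromosome 18, 60803848 to 60812652), the invariant chain that escorts MHC class II molecules, was the most abundant member. It was at 117, 292 and 240 CPM in DHT replicates 1, 2 and 3 and at 107, 131 and 204 CPM in control, a change of 0.55 ± 0.37 that did not pass (edgeR adjusted p = 0.395). The class II chain genes that it serves were almost unread in this table: H2-Ab1 had 10, 19 and 16 counts in DHT and 6, 7 and 13 in control. H2-Aa had 5 to 18 counts in 5 libraries and 216 in control replicate 3. Levels of class II genes are therefore not taken from these counts, while Ciita, their master activator, was at 4.21, 10.1 and 4.81 CPM in DHT and at 4.92, 5.34 and 6.23 CPM in control.

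**Figure D3:**
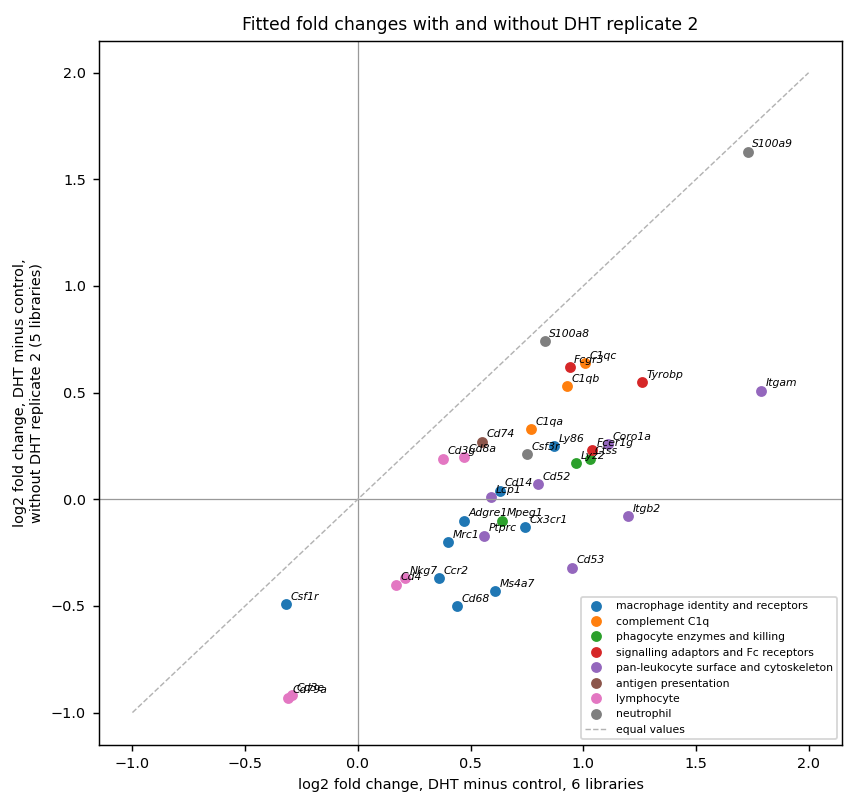
Log2 fold change (DHT minus control) of each of the 35 tested leukocyte genes with all 6 libraries (x axis) against the same without DHT replicate 2 (y axis), coloured by role; the dashed line marks equal values. All points lie below the line, 20 are above 0 on the y axis and 15 below it, and S100a9 is the highest on that axis at 1.63.

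Leaving out DHT replicate 2 left no direction common to these genes. Of the 35, 20 had a log2 fold change above 0 and 15 below, from -0.93 for Cd79a to 1.63 for S100a9, and 12 changed sign. None of the 35 was called (0 also at an unadjusted p under 0.05; smallest edgeR adjusted p 0.225), in a fit that called 7.76% of all genes. Those that kept a change above 0.5 were C1qb, C1qc, Tyrobp, Fcgr3, Itgam, S100a8 and S100a9. Those at -0.3 or lower were Cd68, Csf1r, Ccr2, Ms4a7, Cd53, Cd3e, Cd4, Cd79a and Nkg7.

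Lymphocyte genes had few counts, and their median log2 fold change of 0.19 was the lowest of the groups of members. Cd3e, a signalling chain of the T cell receptor, had 7, 22 and 10 counts in DHT replicates 1, 2 and 3, against 14, 19 and 22 in the controls, which is 0.440, 1.38 and 0.593 CPM in DHT and 0.861, 0.986 and 1.09 CPM in control. Cd79a, a signalling chain of the B cell receptor, had 3, 14 and 8 counts in DHT and 15, 7 and 13 in control. Cd3g, the other T cell receptor chain followed, was at 1.26, 1.94 and 1.54 CPM in DHT and at 0.492, 0.986 and 2.13 CPM in control. DHT replicate 2 was the highest library for Cd3e, and was below control replicate 3 for Cd3g and below control replicate 1 for Cd79a. Of the 6 lymphocyte genes tested, 4 were highest in DHT replicate 2 (Cd3e, Cd4, Cd8a and Nkg7), against 15.2% of all tested genes. The median excess of that library over the other DHT libraries was 1.02 log2 for the 6 genes.

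The log2 fold changes of Cd3e, Cd79a and Cd3g were -0.29 ± 0.49, -0.31 ± 0.62 and 0.38 ± 0.52 (edgeR adjusted p = 0.758, 0.792 and 0.694). Cd4 and Cd8a, the co-receptors of helper and cytotoxic T cells, averaged 1.89 ± 1.19 and 4.29 ± 1.30 CPM in DHT and 1.67 ± 0.502 and 3.08 ± 1.37 CPM in the controls (SD, n = 3 each). Nkg7, a granule protein of natural killer and cytotoxic T cells, averaged 1.32 ± 0.767 CPM in DHT and 1.13 ± 0.564 CPM in control. The constant chain genes Trbc1, Trbc2, Igkc, Ighm and Ighd were listed at 0 in all libraries, and they are not taken as a measure of lymphocytes.

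The 3 neutrophil genes differed among themselves. S100a9 (chromosome 3, 90692632 to 90695721), a calcium-binding alarmin stored in neutrophils, had 29, 36 and 32 counts in DHT replicates 1, 2 and 3, against 17, 14 and 1 in the controls, which is 1.82, 2.25 and 1.90 CPM in DHT and 1.04, 0.726 and 0.0495 CPM in control. It was the 1 tested member whose groups did not overlap, a state with DHT higher that 14.8% of all genes showed. The log2 fold change was 1.73 ± 0.69 (edgeR adjusted p = 0.173), and 1.63 without DHT replicate 2. Without control replicate 3, which holds 1 count, the change was 1.16.

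S100a8, its partner in calprotectin, had 4, 15 and 22 counts in DHT replicates 1, 2 and 3, against 15, 9 and 1 in the controls (log2 fold change 0.83 ± 0.84, edgeR adjusted p = 0.581). Csf3r, the receptor for the neutrophil growth factor G-CSF, was at 2.58, 5.64 and 2.25 CPM in DHT and at 1.91, 1.66 and 2.62 CPM in control. Csf3r was thus highest in DHT replicate 2, as the macrophage genes were, and S100a8 was not. Among other neutrophil genes, Ly6g had 1 count in all, and Ngp, Camp, Mmp8 and Elane had at most 5 in any library. Mpo, a granule enzyme, had 16 counts in DHT replicate 3 and 0 elsewhere. Retnlg had 7, 5 and 5 counts in DHT and 0 in each control. Cxcr2 had 16, 9 and 5 counts in DHT and 4, 5 and 2 in control, Ltf had 9, 14 and 8 in DHT and 16, 10 and 14 in control, and Mmp9 had 7, 23 and 15 in DHT and 15, 14 and 10 in control. These markers thus had few counts and no common direction. Il1b, the cytokine gene of activated myeloid cells, had 26, 172 and 36 counts in DHT and 32, 14 and 53 in control. The chemokine gene Cxcl1, which attracts neutrophils and was chosen after its values were seen, was at 5.15, 1.38 and 2.08 CPM in DHT replicates 1, 2 and 3 and at 0.615, 0.311 and 0.198 CPM in control. It was higher in every DHT kidney, least so where Itgam was highest, and was called (log2 fold change 2.94 ± 0.64, edgeR adjusted p = 0.0491). The call was lost with total counts, limma-voom or no robust step, and with any library but DHT replicate 2 left out (adjusted p up to 0.165).

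A wider set of 151 other leukocyte genes, grouped by cell and role, gave 99 tested genes and 1 call, against 2.84% of all genes. The call was Hdc, the histidine decarboxylase that mast cells and other cells use to make histamine, at 0.571 ± 0.395 CPM in DHT kidneys and 11.3 ± 9.49 CPM in the controls (SD, n = 3 each; log2 fold change -4.28 ± 0.79, edgeR adjusted p = 0.0418). The mast cell genes Cpa3, Mcpt4, Tpsb2, Cma1 and Fcer1a had at most 1 count in any library, while Ms4a2, a chain of the IgE receptor, was at 1.25 to 2.88 CPM in DHT kidneys and 0.83 to 3.01 CPM in control. The cells that gave the Hdc reads were not tested. The Hdc call was lost with no low-count filter (adjusted p = 0.112), with limma-voom (adjusted p = 0.0789), and without DHT replicate 1, 2 or 3 or control replicate 2 or 3 (adjusted p = 0.0553 to 0.145).

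Of 36 other macrophage genes tested, 0 were called, with 5 higher and 1 lower at an unadjusted p under 0.05, and Folr2 was among those that DESeq2 called. Folr2, a folate receptor of resident macrophages, was at 2.70, 2.82 and 1.25 CPM in DHT replicates 1, 2 and 3 and at 6.09, 9.75 and 5 CPM in the controls (log2 fold change -1.62 ± 0.39, edgeR adjusted p = 0.0602). All 3 DHT kidneys were below all controls, DHT replicate 2 included, a state that 15% of all tested genes showed. For the C1q genes DHT replicate 2 was above all controls. Folr2 was called lower without DHT replicate 2 (adjusted p = 0.0422) and with no low-count filter (adjusted p = 0.0147).

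Of 11 dendritic cell and class II genes tested 0 were called by edgeR, with 1 lower at an unadjusted p under 0.05, and DESeq2 called 0. Clec9a, a receptor for dead cells on dendritic cells, was at 1.86 ± 0.575 CPM in DHT kidneys and 3.30 ± 0.705 CPM in the controls (edgeR adjusted p = 0.185), and Itgax, the CD11c integrin, at 4.27, 15.8 and 3.20 CPM in DHT and 4.73, 1.87 and 2.03 CPM in control. Of 7 monocyte genes 0 were called by edgeR (1 higher at an unadjusted p under 0.05), and DESeq2 called Nr4a1, a receptor gene of patrolling monocytes and a rapid response gene of many cells. Nr4a1 was at 38.5, 30.2 and 23 CPM in DHT and at 16.2, 6.9 and 18 CPM in control. Spn, the sialophorin CD43, was at 3.90, 21.3 and 6.05 CPM in DHT and at 4.18, 3.11 and 4.60 CPM in control, and Itga4, an integrin of monocytes and lymphocytes, at 5.15, 20.5 and 7.18 CPM in DHT and 5.23, 4.98 and 5.99 CPM in control. Itgax, Spn and Itga4 were thus highest in DHT replicate 2, and Clec9a and Nr4a1 were not.

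Among 13 other T and NK cell genes edgeR and DESeq2 called 0, with 0 at an unadjusted edgeR p under 0.05. Among 6 other B and plasma cell genes both called 0, with 2 higher at an unadjusted p under 0.05, Cd22 and Xbp1. Cd22, an inhibitory receptor of B cells, had 12, 11 and 12 counts in DHT and 2, 5 and 5 in the controls (log2 fold change 1.72 ± 0.49, edgeR adjusted p = 0.0873). Of 8 growth and recruitment signals and 13 activation genes tested, 0 were called by either tool, with 2 of the latter lower at an unadjusted p under 0.05, Tgm2 and Spp1. The fitted change was above 0 for 8 of the 13. Tgm2, at 165 to 331 CPM, and Spp1, at 1017 to 2422 CPM, stood far above Adgre1 (4.15 to 18.6 CPM). The cells that gave the Tgm2 and Spp1 reads were not tested. A few genes, chosen after their values were seen, were read in DHT replicate 2 almost alone: Marco, a scavenger receptor of macrophages, had 30 counts there and 0 in the other 5 libraries, and Trem1, an amplifier receptor of myeloid cells, had 19 there and 2 elsewhere. With 3 counts as the floor of a count of 0 in a single library, Marco was not detectable in the other 5.

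The genes most like the leukocyte genes across the 6 libraries were leukocyte and adhesion genes. Likeness was the Pearson correlation of log2 CPM with the mean standardised profile of the 35 members, over 6 libraries and 14180 other genes averaging at least 1 CPM. As these are the highest of so many, the values describe a choice and carry no p. Icam1, the ligand of the Itgb2 integrins on endothelium and leukocytes, came first (r = 0.997, and 0.997 without DHT replicate 2). It was at 16.3, 41.5 and 24.7 CPM in DHT replicates 1, 2 and 3 and at 17.2, 18.8 and 23.0 CPM in control, and its change of 0.48 ± 0.31 did not pass (edgeR adjusted p = 0.384). Il2rg, the common cytokine receptor chain, Themis2, Alox5ap, which serves leukotriene synthesis, and Vav1, a signalling protein of blood cells, followed at r of 0.990 to 0.994, and at 0.943 to 0.965 without DHT replicate 2.

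Markers of other cells also moved in DHT replicate 2. Of 10 endothelial markers, 8 were highest there, and their summed level was 558, 961 and 554 CPM in DHT replicates 1, 2 and 3 and 556, 589 and 716 CPM in control. Haemoglobin genes of red blood cells were high there: Hbb-bs was at 1.70, 38.4 and 2.55 CPM in DHT and at 12.1, 21.4 and 3.76 CPM in control. The summed level of the 8 red blood cell markers was 48.8, 108 and 38.9 CPM in DHT and 70.2, 82.4 and 48.4 CPM in control, most of it from Slc25a37 in the libraries low in haemoglobin. Haemoglobin was higher in control replicates 1 and 2 than in DHT replicate 3, as were some members, among them Ccr2, Ms4a7, Ptprc and Cd53. The summed level of the 29 macrophage and general leukocyte genes had the other order. It was 385 and 466 CPM in control replicates 1 and 2 and 703 CPM in DHT replicate 3. The part of endothelial and red blood cells in the leukocyte values was not tested.

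The medians of the tubule marker lists were below the control mean in DHT replicate 2, and so were those of some other lists. The median there was -0.13 log2 for fibroblast and mesenchymal markers, -1.4 for urothelium (2 genes tested) and -0.1 for adrenal (1 gene tested). It was above the control mean for the podocyte, endothelial, red blood cell, fat cell and lymph node lists. Median levels of the 12 proximal tubule markers over the control mean were -0.15, -0.09 and 0.14 log2 in DHT replicates 1, 2 and 3, against 0.19, 0.02 and -0.29 in the controls. Their summed level was 13800 to 22100 CPM in DHT, lowest in replicate 2, and 12200 to 17000 CPM in control. The 5 podocyte markers summed to 543, 811 and 628 CPM in DHT and to 574 to 704 CPM in control, and the 10 fibroblast and mesenchymal markers to 217 to 315 CPM in DHT and 227 to 442 CPM in control. The lymph node genes Ccl21a and Ccl19 were at 0 in all libraries, while Cxcl13, which attracts B cells, had 15, 50 and 42 counts in DHT and 19, 18 and 19 in control (edgeR adjusted p = 0.193). The adrenal genes Cyp11b1, Cyp11b2, Cyp21a1 and Th were at 0, Cyp11a1 had 128 counts in control replicate 3 and at most 6 elsewhere, and Star had 13, 35 and 8 counts in DHT and 35, 48 and 50 in control. The fat cell genes Adipoq and Plin1 had at most 3 counts in each library but control replicate 2. Fabp4, which fat cells share with endothelium and macrophages, was highest in DHT replicate 2, at 36.9, 116 and 30.3 CPM in DHT and 30.2, 55.1 and 65.1 CPM in control. The urothelial markers summed to at most 2.96 CPM except for 26.9 CPM in control replicate 3. Of 63 tested markers of other cells, 2 were called, Cyp2e1 and Ehd3, both higher.

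**Figure D4:**
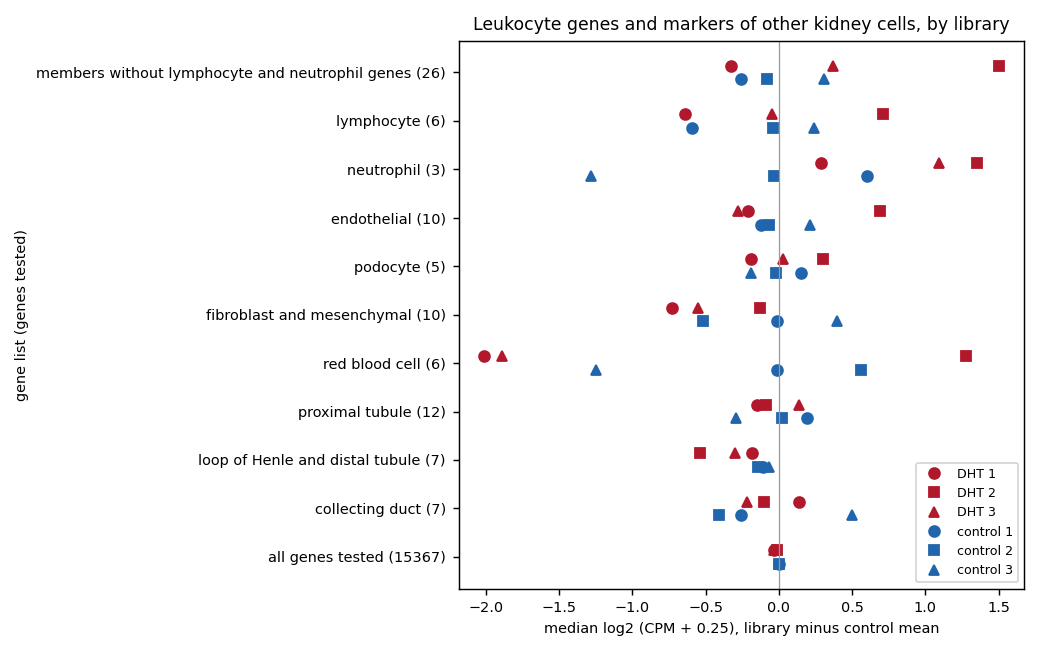
Median log2 (CPM + 0.25) over the control mean for each gene list in each library, with DHT libraries in red and controls in blue (circle, square and triangle for replicates 1, 2 and 3) and the number of genes tested in brackets. DHT replicate 2 is the rightmost point for the leukocyte, lymphocyte, neutrophil, endothelial, podocyte and red blood cell lists, and lies at -0.09 and -0.54 for the proximal tubule and the loop of Henle.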

How the data were processed

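RNA was measured in 6 kidney samples, 3 DHT and 3 control. Per the labels' protocols, RNA was extracted with Trizol and used for Illumina mRNA libraries. HISAT2 2.0 and mm10 are named per the submitters' processing notes. The counting tool, annotation and strand setting have no source here and are not given. The authors deposited raw counts by gene symbol, without normalization, in 46095 rows (20681 with no count). Of the rows, 27 bear dates in place of symbols and were kept. Columns were matched to samples by title.

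Genes were kept with filterByExpr (minimum count 10, minimum total 15), leaving 15367, scaled by TMM and fitted with edgeR 4.0.16 in R 4.3.3 (robust quasi-likelihood, group as the single term), with Benjamini-Hochberg adjustment over all genes at 0.05. Standard errors are those the F statistic implies. Log levels use a pseudocount of 0.25 CPM. Alternatives were median-ratio factors, total counts, no filter, 1 CPM in 3 libraries, DESeq2 1.42.0, limma-voom (limma 3.58.1), no robust step, a replicate block, thresholds of 0.1 and 0.01, and leaving out each library. The common biological coefficient of variation was 0.217. In simulated counts over 15098 genes, 51% of genes changed 2-fold and 100% of those changed 4-fold were called, with 2 false calls. Every simulated gene had the common coefficient of variation, and only genes above a floor of counts were changed. The leukocyte genes varied more, with a median SD of log2 CPM in DHT of 0.90 against 0.21 over all genes. These shares therefore do not apply to them. No 2 libraries agreed within sampling noise.

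Coordinates are from GENCODE M21 (GRCm38, the assembly of mm10), matched by symbol for all 39 members; near-identical transcripts (95% identity over 50% of the transcript) were found with BLAST 2.17.0+. Members and lists were chosen with earlier results of these data known. Values in every library are given for a fixed set of members and for those with the 3 largest and 3 smallest excesses of DHT replicate 2; of other lists, called genes and up to 3 more by smallest p were taken, and other genes named were chosen after their values were seen. Some genes that this rule took are not reported here.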

Additional observations from a re-analysis of the deposited data

How the results depend on the processing

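The count of leukocyte genes called stayed at 0 under every alternative but DESeq2, which called 2, and over all libraries left out it ran from 0 to 0. Their median log2 fold change was 0.74 with all libraries, 0.52 to 0.75 under the other tools, filters, scalings and the replicate block, and 0.07 (without DHT replicate 2) to 1.02 (without DHT replicate 1) with 1 library left out. The median excess of DHT replicate 2 over the other DHT libraries was 1.27 to 1.5 log2 under 4 alternatives, beside 1.29. Total counts moved the median of all genes to -0.101 log2 and the split of all calls to 132 higher and 208 lower, beside 212 and 225.

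Calls over all genes numbered 437, and 852 with no low-count filter, 1634 with DESeq2, 85 with the replicate block, 1528 at a threshold of 0.1 and 4 at 0.01; with 1 library left out they ran from 0 (without DHT replicate 3) to 1224 (without DHT replicate 2). Other leukocyte genes called numbered 1, and 6 with DESeq2, 0 with limma-voom, 0 with the replicate block (Hdc adjusted p = 0.0502), 5 at 0.1 and 0 at 0.01, with 0 to 1 when a library was left out. Cell type markers called numbered 2, and 1 with total counts, 9 with DESeq2, 0 with the replicate block, 5 at 0.1 and 0 at 0.01, with 0 to 8 when a library was left out. The cause was not tested.

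Whether the replicate numbers pair the samples is not given. Correlations of same-numbered deviations were 0.079, -0.157 and 0.046, beside -0.143 to 0.133 for different numbers. Deviations were taken from the mean of each group of 3, which ties these correlations to each other. They therefore cannot settle whether the samples were paired. The block called 0 leukocyte genes, with 0.553% of all genes called.

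Of single genes, Cd4 (-0.01) and Ccl2 (-0.21) changed sign with limma-voom, and with 1 library left out the values ran from -0.06 to 0.49 for Csf1, -1.48 to 1.42 for Ccl2 and -0.30 to 0.44 for Ciita, each lowest without DHT replicate 2. With 1 library left out, log2 fold changes ran from -0.50 to 0.86 for Cd68, -0.10 to 0.87 for Adgre1, -0.69 to 0.03 for Csf1r, -0.20 to 0.78 for Mrc1, -0.13 to 1.05 for Cx3cr1, -0.37 to 0.65 for Ccr2, -0.43 to 0.97 for Ms4a7, -0.10 to 1 for Mpeg1, -0.17 to 0.84 for Ptprc, -0.08 to 1.65 for Itgb2, -0.32 to 1.35 for Cd53, -0.92 to 0.01 for Cd3e, -0.40 to 0.55 for Cd4, -0.93 to 0.08 for Cd79a and -0.37 to 0.65 for Nkg7. How far depth limits genes with few counts, such as Cd3e, Cd79a and S100a8, was not tested.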
